A study of Mus musculus with 12 samples.

Results

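Interferon-stimulated genes are the genes that cells switch on when an interferon reaches its receptor. A list of 47 such genes was followed through RNA sequencing of mouse acute myeloid leukemia (AML) cells that were treated with CCS1477, an inhibitor of the bromodomains of the histone acetyltransferases p300 and CBP. The genes were chosen by name, and 45 of the 47 were found among the 15651 genes of the expression table. Expression of *Ifit3* and *Mx2* was not analysed here.

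The cells were c-Kit+ enriched splenocytes from moribund mice of 2 genotypes, 3 mice each. *D/F* mice carried Dnmt3a fl/fl, Flt3 ITD/ITD and Mx1Cre, and *T/F* mice carried Tet2 fl/fl with the same Flt3 ITD/ITD and Mx1Cre. The cells of each mouse were divided between CCS1477 and DMSO, the vehicle, for 6 hours, at 4 µM in *D/F* and 2 µM in *T/F*, which gave 12 libraries in 4 groups of 3. All cells were cultured with SCF, IL6, IL3 and serum, and no wild-type cells were compared. The promoter of *Mx1*, itself an interferon-stimulated gene, drove the Cre recombinase in every group. No pIpC, the RNA that is commonly given to induce this promoter, was used, and the floxed alleles were deleted spontaneously, 1 or both of them in a given cell. Since the genotypes received different doses, genotype and dose cannot be told apart in any comparison of their responses. In bulk RNA, fewer cells of a type and less RNA per cell cannot be told apart either. Levels are in TPM, the share of a library's transcripts after division by transcript length, so they can be set side by side between genes.

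Type I interferon binds the receptor pair IFNAR1 and IFNAR2, whose kinases JAK1 and TYK2 activate the factor ISGF3. ISGF3 binds the interferon-stimulated response element (ISRE), whereas interferon gamma acts on the gamma-activated site (GAS). The genes so induced sense foreign nucleic acid, block viral entry and replication, and feed back on the pathway, and many are also expressed at rest in blood stem and progenitor cells.

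The promoters of the reference genes *Ifit1* and *Isg15* and of the 4 genes with the lowest adjusted p over both genotypes, among those called above 2-fold in 1 genotype, are shown first, because they let the 2 classical elements be read beside the responses. These 4 (*Isg20*, *Gbp3*, *Lgals3bp* and *Irf7*) were chosen after their values were seen. Each window runs from 250 bases before the gene's start through its first 50 bases (RefSeq, GRCm38.p6), 5′ to 3′ on the gene's strand, and for *Isg20* and *Gbp3*, with 3 and 2 listed starts, the first listed start is shown. Capitals mark the ISRE core GAAANNGAAA, on either strand, and the GAS element TTCNNNGAA, which reads the same on both strands. Where matches overlap, the run of capitals is longer.
*Ifit1*: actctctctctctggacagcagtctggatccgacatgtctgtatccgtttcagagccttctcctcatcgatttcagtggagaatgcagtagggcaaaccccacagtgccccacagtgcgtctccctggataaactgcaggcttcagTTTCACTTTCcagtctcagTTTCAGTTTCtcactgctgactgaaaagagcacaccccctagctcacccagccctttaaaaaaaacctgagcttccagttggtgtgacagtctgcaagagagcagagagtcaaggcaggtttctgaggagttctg
*Isg15*: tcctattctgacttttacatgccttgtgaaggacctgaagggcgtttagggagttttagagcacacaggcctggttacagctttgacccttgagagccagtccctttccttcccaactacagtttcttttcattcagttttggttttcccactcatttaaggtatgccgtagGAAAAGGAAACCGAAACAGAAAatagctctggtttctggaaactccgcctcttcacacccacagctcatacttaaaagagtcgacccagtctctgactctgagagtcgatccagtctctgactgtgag
*Isg20*: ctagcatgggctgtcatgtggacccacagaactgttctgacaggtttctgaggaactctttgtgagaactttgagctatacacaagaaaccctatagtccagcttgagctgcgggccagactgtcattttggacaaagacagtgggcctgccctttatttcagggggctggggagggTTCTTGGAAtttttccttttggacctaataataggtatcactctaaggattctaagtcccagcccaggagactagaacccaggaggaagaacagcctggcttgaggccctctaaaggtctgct
*Gbp3*: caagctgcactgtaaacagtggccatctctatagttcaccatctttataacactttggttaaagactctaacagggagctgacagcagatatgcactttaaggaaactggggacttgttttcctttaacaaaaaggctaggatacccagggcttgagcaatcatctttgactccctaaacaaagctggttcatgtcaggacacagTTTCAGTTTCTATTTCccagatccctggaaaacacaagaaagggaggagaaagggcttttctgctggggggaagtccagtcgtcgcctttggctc
*Lgals3bp*: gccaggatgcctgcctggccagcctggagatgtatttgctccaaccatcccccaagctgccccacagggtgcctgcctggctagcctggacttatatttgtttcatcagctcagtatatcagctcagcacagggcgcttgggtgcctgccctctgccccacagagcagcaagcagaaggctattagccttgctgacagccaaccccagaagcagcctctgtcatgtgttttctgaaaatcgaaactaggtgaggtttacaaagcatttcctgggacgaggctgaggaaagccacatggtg
*Irf7*: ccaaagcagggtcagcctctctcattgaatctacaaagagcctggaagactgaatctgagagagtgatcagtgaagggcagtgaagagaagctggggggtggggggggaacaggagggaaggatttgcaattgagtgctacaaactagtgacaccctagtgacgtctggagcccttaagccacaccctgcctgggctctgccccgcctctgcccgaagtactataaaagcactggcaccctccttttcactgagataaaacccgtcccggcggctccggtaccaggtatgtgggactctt

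The *Ifit1* window (chr19:34640639-34640938, plus strand) held 2 ISRE cores, and the *Isg15* window (chr4:156200769-156201068, minus strand) held 3 that overlap. The *Gbp3* window (chr3:142559794-142560093, plus strand) held 2 overlapping ISRE cores from -45 to -30. The *Isg20* window (chr7:78913174-78913473, plus strand) held no ISRE core and 1 GAS element from -73 to -65. Neither element was matched in the windows of *Lgals3bp* (chr11:118401910-118402209, minus strand) and *Irf7* (chr7:141266375-141266674, minus strand), which says only that these letters are not in these windows. The window of *Ifitm3*, the other gene called above 2-fold in 1 genotype, is not printed (chr7:141010695-141010994, minus strand). It held 2 ISRE cores, from 2 to 11 and from 19 to 28, and 1 GAS element from 13 to 21. Over the whole list, 37 of 47 genes had a window, in 47 windows for all their starts. The ISRE core was found in 19 of those 47 windows (40.4%), against 3.44% of 32851 promoter windows of the same length, and the GAS element in 13 (27.7%), against 8.30%. A match is a description of the sequence and not a bound site.

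**Figure D1:**
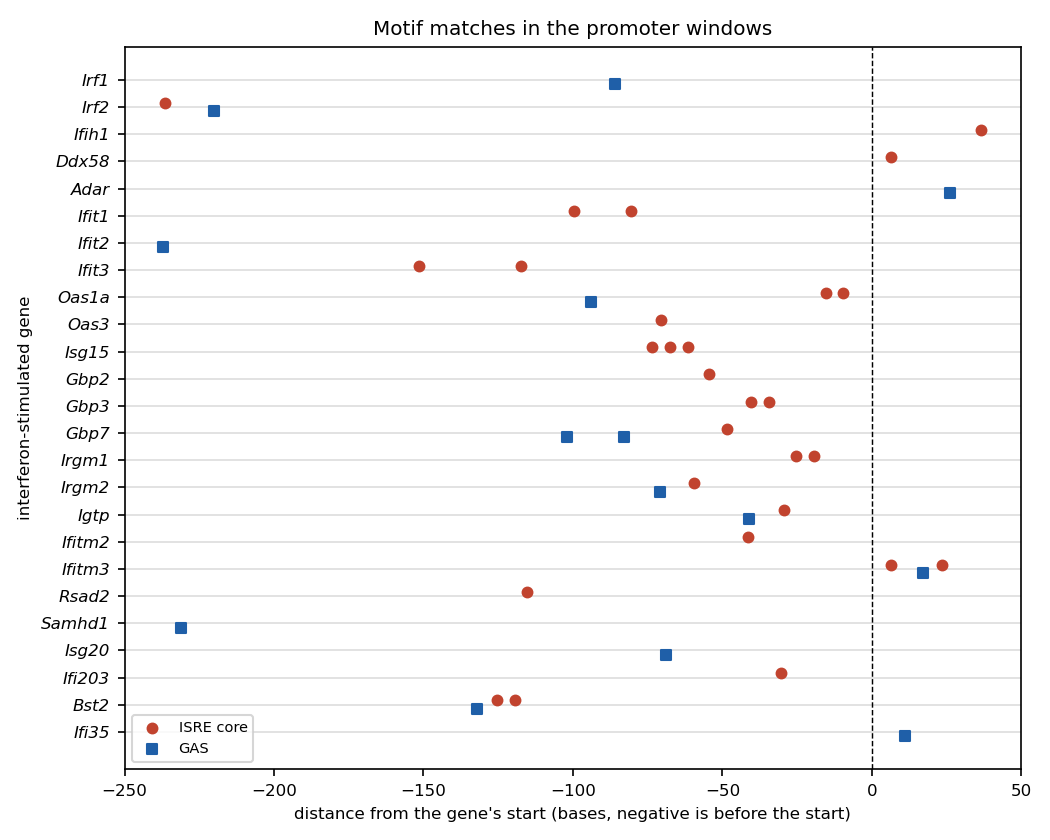
Positions of the ISRE core (circles) and the GAS element (squares) in the promoter windows of the interferon-stimulated genes with at least 1 match. The x axis is the distance from the gene's start in bases, each row is a gene, and 19 genes hold an ISRE core and 13 a GAS element.

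The libraries summed to between 914204 and 931697 TPM. *Kit* was at 22.8 to 149 TPM and *Mpo*, a granule enzyme of myeloid progenitors, at 277 to 3673 TPM over the 12 libraries. Of the markers of other lineages, 5 of 8 listed for T cells, 4 of 7 for B cells and 2 of 6 for NK cells were analysed. The summed T cell markers ranged from 17.5 to 50.2 TPM and the NK markers from 0.481 to 13.1 TPM. The B cell markers summed to 22.3 to 61.9 TPM in all libraries other than those of *T/F* with CCS1477, where they summed to 106 to 134 TPM. Under DMSO, *Dnmt3a* was at 29.3 to 55.7 TPM in *D/F* and 39.9 to 53.9 TPM in *T/F*, and *Tet2* was at 30.0 to 35.8 TPM in *T/F* and 38.3 to 43.4 TPM in *D/F*. Gene totals of the floxed genes therefore overlapped between genotypes for *Dnmt3a* and did not for *Tet2*, and a gene total does not show how far a floxed exon was deleted.

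The 45 genes had means from 1.22 TPM (*Ifit1*) to 1524 TPM (*Ifitm1*). For most of them, the highest and lowest DMSO mouse of a genotype lay further apart than the means of CCS1477 and DMSO did. The median of the genes' means over 12 libraries was 15.8 TPM, close to the 18.3 TPM of all genes. Means were at least 100 TPM for 5 genes (*Ifitm1*, *Ifitm2*, *Ifitm3*, *Samhd1* and *Sp100*), from 10 to 100 TPM for 24, and under 10 TPM for 16, including *Isg15*, *Ifit1*, *Rsad2* and *Oas2*. In *D/F*, the DMSO library of mouse 2 was the highest of its group for 40 of 45 genes (88.9%), while the same library was highest for 61.6% of all genes with a group mean of at least 1 TPM. The CCS1477 library of that mouse was highest for 36 of 44 (81.8%, against 58.7% of all genes). In *T/F*, mouse 3 stood highest for 39 of 45 genes under DMSO (86.7%, against 48.7%) and for 39 of 44 under CCS1477 (88.6%, against 50%). So each genotype had 1 mouse with high interferon-stimulated genes in both of its libraries, also beyond its share of all genes.

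*Oasl2*, which encodes an OAS-like protein, was one of the genes that differed most between mice. Under DMSO it was at 2.18, 36.4 and 3.94 TPM in *D/F* mice 1, 2 and 3 and at 5.35, 5.46 and 26.0 TPM in *T/F* mice 1, 2 and 3. *Gbp2*, an interferon-inducible GTPase, was at 4.17, 56.0 and 9.32 TPM in *D/F* and 8.67, 17.4 and 36.2 TPM in *T/F*. Both genes were highest in the same 2 mice. The median gap between the highest and the lowest DMSO mouse was 1.20 on the log2(TPM + 1) scale for the 45 genes in *D/F*, against 0.53 for all genes tested. In *T/F* it was 0.53, against 0.25. This gap was larger than the change with CCS1477 for 38 of 45 genes in *D/F* (84.4%, against 64.1% of all genes tested) and for 30 of 45 in *T/F* (66.7%, against 45.6%). A gap between single mice and a difference of group means are unlike measures, and the treatments were paired within mice. The 3 IFITM genes and *Bst2* broke the pattern in *D/F*, where mouse 2 had the lowest level of each under both treatments.

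The mice also differed in maturation markers. Under DMSO, *Cd34*, a marker of immature progenitors, was at 110, 447 and 138 TPM in *D/F* mice 1, 2 and 3 and at 121, 95 and 201 TPM in *T/F* mice 1, 2 and 3. The 7 mature neutrophil markers summed to 7014, 2279 and 4690 TPM in *D/F* and to 5881, 4745 and 2120 TPM in *T/F*. The 10 genes used to check for leukemic progenitors summed to 10639, 4297 and 8323 TPM in *D/F* and to 6898, 6180 and 4672 TPM in *T/F*. The 2 mice with high interferon-stimulated genes thus had the lowest sums of both the neutrophil and the progenitor list. Yet they had the highest *Cd34* and *Flt3* of their genotype, and both are among the 10 genes of the progenitor list. *Flt3* was at 9.86, 46 and 25.9 TPM in *D/F* mice 1, 2 and 3 and at 18.2, 27.1 and 47 TPM in *T/F* mice 1, 2 and 3. A sum of TPM gives most weight to abundant genes such as *Mpo*, so the progenitor sum does not stand for each of its genes. Their conventional dendritic cell markers were the highest of their genotype, at 51.6 TPM in *D/F* mouse 2 and 48.3 TPM in *T/F* mouse 3. So were their sums for T cells (50.2 and 24.3 TPM), B cells (55.1 and 61.9 TPM) and mast cells (183 and 81 TPM). Their monocyte sums were the lowest, at 523 and 560 TPM. The lists of plasmacytoid dendritic cells, macrophages, NK cells, erythroid cells and megakaryocytes were highest in only 1 of these 2 mice. The part of these markers in the levels above was not tested.

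**Figure D2:**
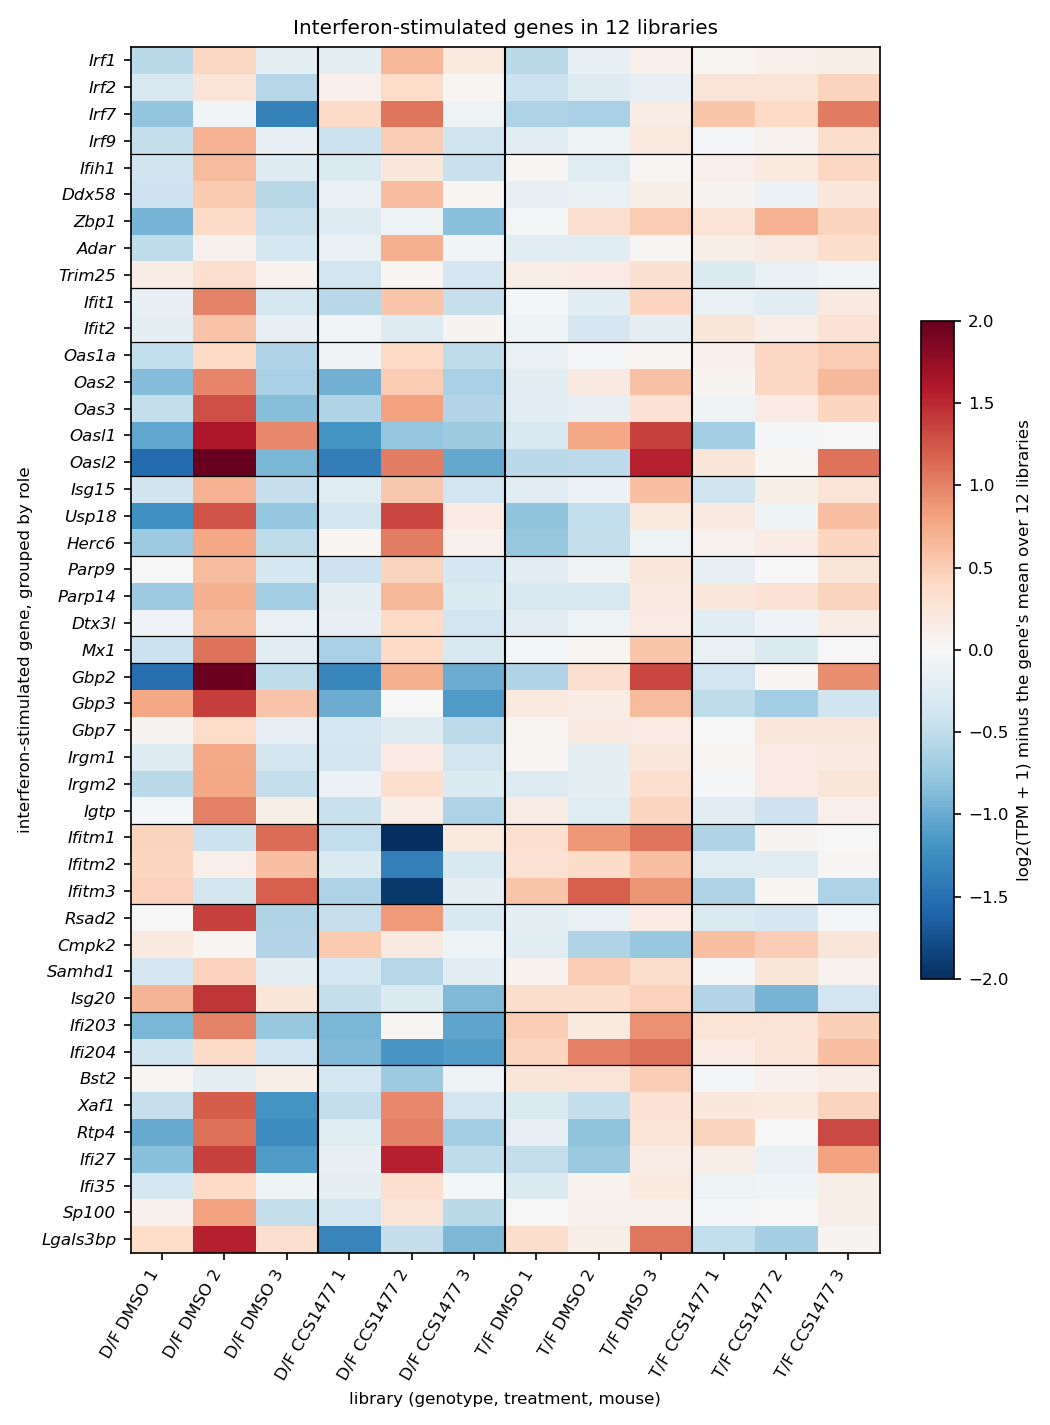
Level of the 45 interferon-stimulated genes in each of the 12 libraries, as log2(TPM + 1) minus the gene's mean over all libraries (red higher, blue lower), with genes grouped by role and libraries by group. The columns of *D/F* mouse 2 and *T/F* mouse 3 are red for most genes, while the IFITM genes, *Gbp3*, *Isg20* and *Lgals3bp* are bluer with CCS1477 than with DMSO in every mouse.

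CCS1477 did not move the interferon-stimulated genes in 1 direction. When both genotypes were fitted together with genotype as a covariate, *Irf7*, *Irf2* and *Cmpk2* rose, and *Trim25*, *Oasl1*, *Gbp3*, *Ifitm1*, *Ifitm2*, *Ifitm3*, *Isg20*, *Ifi204*, *Bst2* and *Lgals3bp* fell (limma, adjusted p under 0.05). Several classical genes did not pass and did not share a direction. *Isg15*, *Oas2* and *Oas3* had log2 fold changes from -0.03 to 0.05. *Ifit1*, *Rsad2* and *Mx1* had -0.22, -0.20 and -0.33, and *Usp18* and *Herc6* had 0.61 and 0.60. Standard errors of these genes ran from 0.25 (*Isg15*) to 0.41 (*Usp18*). The 3 rises were 6.67% of the 45 genes, against 25.8% of 15583 genes tested, and the 10 falls were 22.2%, against 19.6%. Above 2-fold, 1 gene rose (2.22%, against 3.10%) and 6 fell (13.3%, against 5.70%). The median log2 fold change of the 45 genes was -0.03, and that of all genes was 0.07. Within mice, 10 genes were higher with CCS1477 in all 6 (22.2%, against 31.8% of all genes) and 13 were lower in all 6 (28.9%, against 24.2%).

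Within *D/F*, *Gbp3* and *Lgals3bp* fell, both above 2-fold, and no gene rose. The 2 falls were 4.44% of the list, against 6.51% of 15501 genes at any fold and 4.61% above 2-fold, and the 0 rises stood against 5.14% and 2.67%. Within *T/F*, 7 genes rose (15.6%, against 25.8% of 15256 genes) and 6 fell (13.3%, against 17.6%). Those above 2-fold were *Irf7*, which rose (2.22%, against 2.63%), and *Ifitm3* and *Isg20*, which fell (4.44%, against 4.70%). With the libraries rescaled to equal medians, the *T/F* counts were 6 rises and 8 falls. No gene was called above 2-fold in both genotypes in these fits, while with the mouse as a block *Irf7*, *Ifitm3* and *Isg20* were. The list's median log2 fold change came to -0.20 for *D/F*, against 0.06 for all genes, and to 0.06 for *T/F*, against 0.07.

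Since both treatments were applied to cells of the same mouse, the mouse was also fitted as a block, which raised the counts. In *D/F*, 5 genes then rose (11.1%, against 21.4%) and 11 fell (24.4%, against 18.0%). New among them were the rises of *Irf1*, *Irf7*, *Adar*, *Herc6* and *Ifi27* and the falls of *Trim25*, *Gbp7*, *Igtp*, the 3 IFITM genes, *Isg20*, *Ifi204* and *Bst2*. In *T/F*, 13 rose (28.9%, against 31.2%) and 12 fell (26.7%, against 22.9%), with new rises of *Irf9*, *Usp18*, *Parp14*, *Xaf1*, *Rtp4* and *Ifi27* and new falls of *Oasl1*, *Igtp*, *Samhd1*, *Ifi204*, *Bst2* and *Lgals3bp*. Over both genotypes 12 rose (26.7%, against 34.5%) and 13 fell (28.9%, against 25.9%). Those that passed over both genotypes only under the block were *Irf1*, *Ddx58*, *Adar*, *Oas1a*, *Usp18*, *Herc6*, *Parp14*, *Rtp4* and *Ifi27* among the rises and *Ifit1*, *Mx1* and *Igtp* among the falls. DMSO and CCS1477 libraries did not overlap for 0 higher and 7 lower genes in *D/F* (15.6% lower, against 19.9% higher and 16.7% lower of all genes). In *T/F* this held for 9 higher genes (20.0%, against 33.5%) and 8 lower genes (17.8%, against 22.6%). Without *D/F* mouse 2, 3 genes rose and 7 fell in *D/F*, where 3739 of all genes passed, against 1805 with all 3 mice. Without *D/F* mouse 1 or mouse 3, 0 of all genes passed. Without *T/F* mouse 3, 10 rose and 5 fell in *T/F*, where 5122 of all genes passed, against 6620 with all 3 mice. Without *T/F* mouse 2, 0 rose and 2 fell there, and 3192 of all genes passed. Of the 13 genes that passed in *T/F*, *Isg20* alone also passed without each of the 3 mice in turn. With all 4 groups in 1 fit, *Irf2*, *Cmpk2* and *Isg20* were the ones of these 13 that passed.

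**Figure D3:**
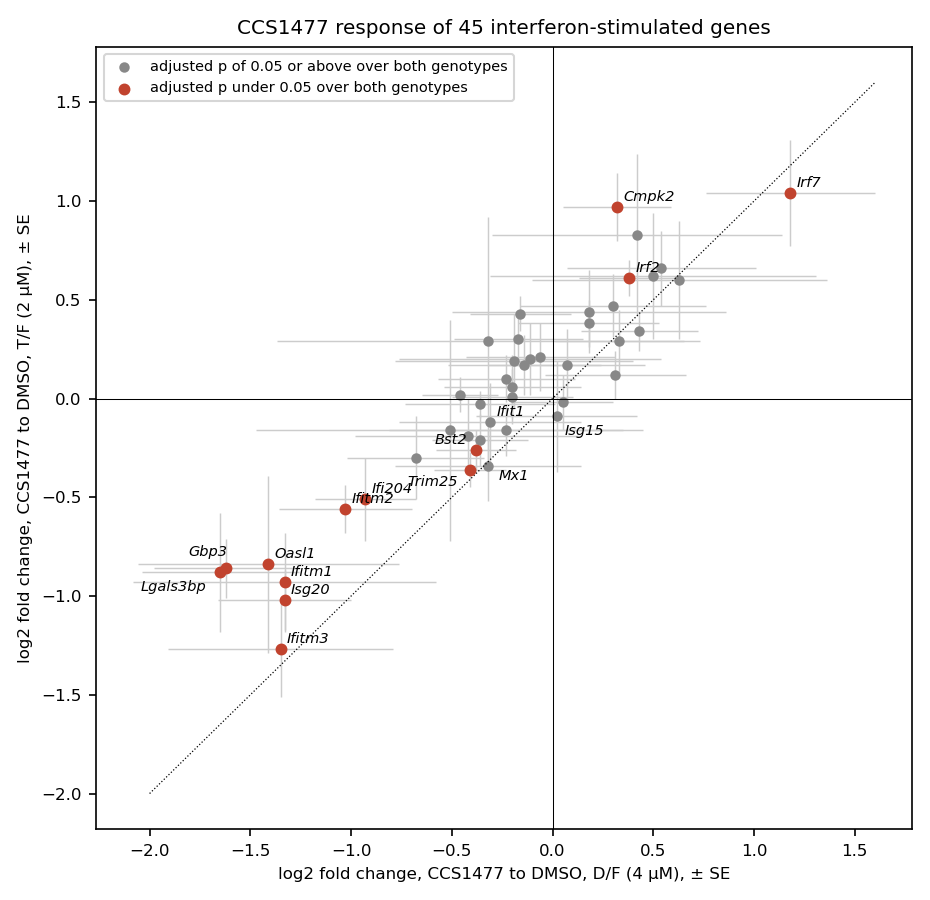
Log2 fold change of CCS1477 against DMSO on the log2(TPM + 1) scale in *D/F* (x axis, 4 µM) and *T/F* (y axis, 2 µM) for the 45 genes, with standard errors from limma over 3 mice each. Red points pass an adjusted p of 0.05 over both genotypes, the dotted line marks equal change, and *Irf7* has the highest value on both axes, at 1.18 and 1.04.

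The IRF transcription factors held the largest rise of the list. *Irf7*, the factor that amplifies interferon production, was at 6.16, 10.9 and 3.85 TPM under DMSO and 15.1, 24.9 and 10.5 TPM with CCS1477 in *D/F* mice 1, 2 and 3. The *T/F* levels were 7.09, 6.91 and 12.7 TPM under DMSO and 17.2, 15.3 and 24.5 TPM with CCS1477. Every mouse was higher with CCS1477, by 1.93 to 2.72 times, and the groups overlapped in *D/F* and not in *T/F*. Mean levels were 6.98 ± 3.61 TPM under DMSO and 16.8 ± 7.38 TPM with CCS1477 for *D/F*, and 8.90 ± 3.28 and 19.0 ± 4.88 TPM for *T/F* (SD, n = 3). On the log2 scale this was a change of 1.18 ± 0.42 (SE) in *D/F*, with a limma adjusted p of 0.118, of 0.00504 when mice were blocked and of 0.0461 without mouse 2. For *T/F* the change was 1.04 ± 0.27 (adjusted p = 0.0258, limma), and the adjusted p was 0.136 without mouse 1 and 0.111 without mouse 2. Over both genotypes it was 1.11 ± 0.26 (adjusted p = 0.00472, limma).

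*Irf2*, which competes with IRF1 for the same DNA element, rose in *T/F* by 0.61 ± 0.09 (adjusted p = 0.00403, limma) and had a value of 0.38 ± 0.25 in *D/F* (adjusted p = 0.349, limma). *Irf1*, a transcriptional activator, had 0.33 and 0.29 in *D/F* and *T/F*, and *Irf9*, the DNA-binding subunit of ISGF3, had -0.14 and 0.17. None of these values for *Irf1* and *Irf9* passed the test (limma adjusted p from 0.197 to 0.849), while with blocked mice *Irf1* rose in *D/F* (0.0438) and *Irf9* in *T/F* (0.0457). Thus 2 of the 4 IRF genes of the list rose in *T/F* and over both genotypes, where 25.8% of all genes rose, and none fell. Of the 8 IRF genes outside the list, 1 rose and 3 fell in each of these fits.

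The 3 IFITM genes, which encode membrane proteins that hinder viral entry and which lie together on chromosome 7, were the most abundant genes of the list and moved down together. *Ifitm3* (141009586 to 141010770, GRCm38, minus strand) was at 275, 154 and 459 TPM under DMSO and 129, 51.8 and 173 TPM with CCS1477 in *D/F* mice 1, 2 and 3. *T/F* mice 1, 2 and 3 had 294, 458 and 367 TPM under DMSO and 131, 204 and 130 TPM with CCS1477. The groups overlapped in *D/F*, through the low level of mouse 2, and not in *T/F*. The *D/F* change was -1.35 ± 0.56 on the log2 scale, with a limma adjusted p of 0.162, of 0.00622 when mice were blocked and of 0.0551 without mouse 2. The *T/F* change was -1.27 ± 0.24 (adjusted p = 0.00811, limma), and the adjusted p was 0.0677 without mouse 3. Over both genotypes it was -1.31 ± 0.32 (adjusted p = 0.00574, limma).

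*Ifitm1* was at 1755, 952 and 2796 TPM under DMSO and 912, 216 and 1479 TPM with CCS1477 in *D/F*, and at 1630, 2359 and 2695 TPM and then 853, 1343 and 1299 TPM in *T/F*. *Ifitm2* was at 526, 417 and 593 TPM and then 320, 151 and 314 TPM in *D/F*, and at 476, 501 and 590 TPM and then 329, 338 and 397 TPM in *T/F*. Every mouse was lower with CCS1477 for both genes, and the groups overlapped only for *Ifitm1* in *D/F*. Over both genotypes *Ifitm1* fell by 1.13 on the log2 scale (adjusted p = 0.0476, limma) and *Ifitm2* fell by 0.79 (adjusted p = 0.00569, limma). All 3 IFITM genes fell in *T/F*, and in *D/F* they did so with the mouse as a block (adjusted p from 0.00622 to 0.0293, limma). The IFITM genes are close in sequence, so the split of reads between them is uncertain.

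Among the interferon-inducible GTPases, only *Gbp3* passed the test. *Gbp3*, a guanylate-binding protein of the group that attacks pathogen vacuoles, was at 23.9, 37.0 and 20.5 TPM under DMSO and 6.30, 13.6 and 5.65 TPM with CCS1477 in *D/F* mice 1, 2 and 3. In *T/F* its level was 15.7, 15.2 and 21.6 TPM and then 9.19, 8.06 and 10 TPM. DMSO and CCS1477 libraries were separate in both genotypes. It fell by 1.62 on the log2 scale in *D/F* (SE 0.36, adjusted p = 0.0392, limma) and by 0.86 in *T/F* (SE 0.15, adjusted p = 0.00666, limma). The *D/F* adjusted p was 0.267 without mouse 1, 0.266 without mouse 3 and 0.0512 with a pseudocount of 0.1, while it was 0.0119 without mouse 2. No gene of the table passed in *D/F* without mouse 1 or 3. The adjusted p-values of *T/F* were 0.0510 without mouse 1 and 0.0503 without mouse 2.

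The other 5 GBP and IRG genes did not pass over both genotypes. *Gbp2* had -0.34 ± 0.59, *Gbp7* had -0.22 ± 0.12, *Irgm1* had -0.06 ± 0.19, *Irgm2* had 0.12 ± 0.22 and *Igtp*, like both *Irgm* genes an immunity-related GTPase, had -0.49 ± 0.21 on the log2 scale (limma adjusted p from 0.0787 to 0.815). With the mouse as a block, *Igtp* fell over both genotypes (adjusted p = 0.00414, limma) and *Gbp7* fell in *D/F* (adjusted p = 0.0299, limma). *Mx1*, the gene whose promoter drove the Cre, was at 6.87, 21.4 and 8.02 TPM under DMSO and 5.77, 13 and 7.54 TPM with CCS1477 in *D/F*. The corresponding *T/F* levels were 9.35, 9.93 and 14.6 TPM and then 8.51, 7.65 and 9.62 TPM. It was lower with CCS1477 in all 6 mice while the groups overlapped in both genotypes, and the log2 fold change over both was -0.33 (95% interval -0.90 to 0.24, adjusted p = 0.325 by limma and 0.0162 when mice were blocked).

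The enzymes that act on nucleotides and RNA split in direction. *Isg20*, a 3′ to 5′ exonuclease of single-stranded RNA, was at 8.54, 15.1 and 6.02 TPM under DMSO and 3.29, 3.93 and 2.22 TPM with CCS1477 in *D/F*. *T/F* mice had 6.62, 6.61 and 7.18 TPM and then 2.97, 2.11 and 3.56 TPM. No CCS1477 library of a genotype reached its lowest DMSO library. The *D/F* change was -1.33 ± 0.33 on the log2 scale, with a limma adjusted p of 0.0522, of 0.00858 when mice were blocked and of 0.0375 without mouse 2. In *T/F* it fell by 1.02 (SE 0.15, adjusted p = 0.00314, limma), and it passed without each mouse in turn (adjusted p from 0.0153 to 0.0405, limma), though without mouse 2 its change of -0.89 was under 2-fold.

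*Cmpk2*, a mitochondrial nucleotide kinase, rose in *T/F* by 0.97 ± 0.17 (adjusted p = 0.00577, limma), with 0.32 ± 0.27 in *D/F* (adjusted p = 0.460, limma). Its genomic neighbour *Rsad2* (viperin), an antiviral radical SAM enzyme, had -0.16 ± 0.13 in *T/F* and was under 5 TPM in every library. *Samhd1*, which depletes deoxynucleotides, was at 108, 188 and 120 TPM under DMSO and 107, 91.4 and 117 TPM with CCS1477 in *D/F*, and at 143, 192 and 174 TPM and then 133, 162 and 144 TPM in *T/F*. It was lower in all 6 mice with overlapping groups, and its change of -0.28 ± 0.14 over both genotypes did not pass (adjusted p = 0.118, limma), though it fell in *T/F* with blocked mice (adjusted p = 0.0493, limma).

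Of the remaining effectors, *Lgals3bp*, a secreted glycoprotein that binds galectin-3, was at 81.6, 187 and 79.6 TPM under DMSO and 24.7, 44.9 and 33.2 TPM with CCS1477 in *D/F*. *T/F* levels were 80.5, 68.9 and 132 TPM and then 44.6, 39.4 and 65.5 TPM. Again all CCS1477 libraries lay below all DMSO libraries of their genotype. It fell by 1.65 on the log2 scale in *D/F* (SE 0.39, adjusted p = 0.0441, limma), and its value in *T/F* was -0.88 ± 0.30, with a limma adjusted p of 0.0577, of 0.00266 when mice were blocked and of 0.0192 without mouse 3. The *D/F* adjusted p was 0.233 without mouse 1, 0.266 without mouse 3 and 0.0565 with a pseudocount of 0.1, while it was 0.0177 without mouse 2. *Sp100*, a component of PML nuclear bodies, was at 109, 181 and 73.8 TPM and then 79.8, 123 and 70.4 TPM in *D/F*, and at 103, 110 and 109 TPM and then 101, 102 and 112 TPM in *T/F*. Its groups overlapped in both genotypes, and its change of -0.20 ± 0.20 over both did not pass (adjusted p = 0.460, limma).

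*Bst2* (tetherin), which holds budding virus at the cell surface, fell over both genotypes by 0.32 (SE 0.11, adjusted p = 0.0290, limma). *Xaf1*, a promoter of apoptosis, *Rtp4*, a chaperone of receptors, and *Ifi27* had 0.31 ± 0.38, 0.62 ± 0.44 and 0.56 ± 0.46 and did not pass over both genotypes (limma adjusted p from 0.278 to 0.542), though *Xaf1* rose in *T/F* with blocked mice (adjusted p = 0.0419, limma) and *Rtp4* and *Ifi27* rose with the mouse as a block (adjusted p = 0.00634 and 0.000528, limma). *Ifi35* had 0.02 ± 0.14 (adjusted p = 0.939, limma). Of the p200 genes, whose products bind DNA, *Ifi204* fell over both genotypes by 0.72 (SE 0.18, adjusted p = 0.00621, limma) from at most 5.49 TPM, and *Ifi203* had -0.31 ± 0.31. The p200 genes are near copies of one another, so their separate values are uncertain.

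**Figure D4:**
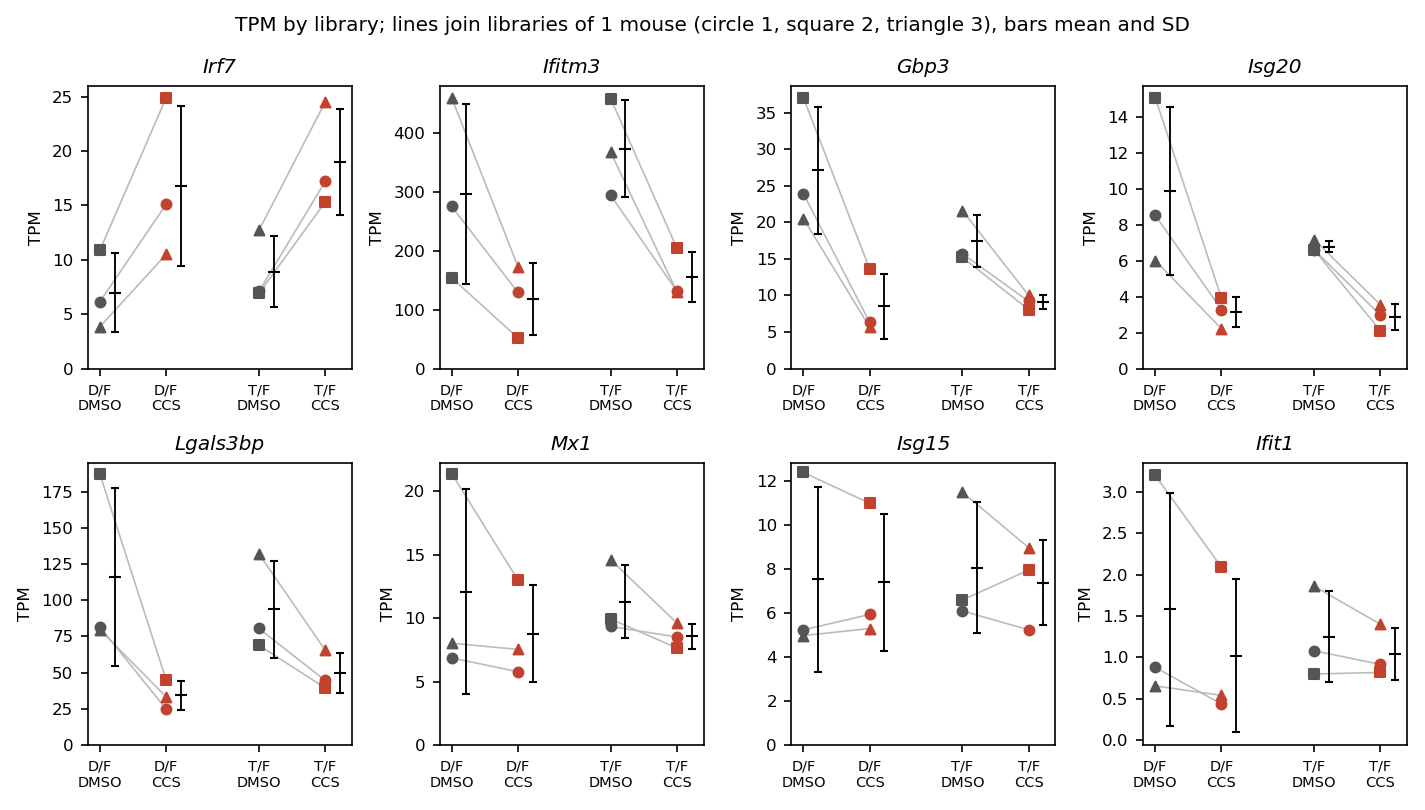
TPM (linear y axes) in each library of the 5 genes called above 2-fold in a genotype and of *Mx1*, *Isg15* and *Ifit1*, with lines joining the DMSO (grey) and CCS1477 (red) libraries of 1 mouse and bars for the mean and SD of 3 mice. *Irf7* goes up in all 6 mice, *Ifitm3*, *Gbp3*, *Isg20* and *Lgals3bp* go down in all 6, and *Isg15* goes up in 3 and down in 3.

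The genes most often used as interferon readouts did not show a common change. *Isg15*, the ubiquitin-like modifier, was at 5.24, 12.4 and 4.98 TPM under DMSO and 5.94, 11 and 5.30 TPM with CCS1477 in *D/F*, and at 6.10, 6.60 and 11.5 TPM and then 5.24, 7.96 and 8.98 TPM in *T/F*. The groups overlapped in both genotypes, and the log2 fold change over both was -0.03 (95% interval -0.58 to 0.51, limma). *Usp18*, which removes ISG15 and dampens the receptor, had 0.61 ± 0.41 over both (adjusted p = 0.254, limma), and *Herc6*, the ligase for ISG15 in mice, rose in *T/F* by 0.66 ± 0.19 (adjusted p = 0.0327, limma). Both were higher with CCS1477 in all 6 mice and rose over both genotypes with the mouse as a block (adjusted p = 0.00528 and 0.000585, limma).

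*Ifit1*, which binds viral RNA that lacks cap methylation, was at most 3.20 TPM in any library and had a log2 fold change over both genotypes of -0.22 (95% interval -0.78 to 0.35, limma). *Ifit1* fell with blocked mice (adjusted p = 0.0357, limma). *Ifit2*, of the same family, rose in *T/F* by 0.43 ± 0.09 (adjusted p = 0.0113, limma, and 0.0543 to 0.0743 without 1 mouse) and had -0.16 ± 0.25 in *D/F*, which became 0.17 without mouse 2. Of the 5 OAS genes, which make or relate to the makers of 2-5A, the activator of RNase L, *Oas1a* rose in *T/F* by 0.38 ± 0.12 (adjusted p = 0.0465, limma), with an adjusted p of 0.0513 with a pseudocount of 0.1, 0.0521 with rescaled libraries, 0.0504 with a trend and 0.364 with all 4 groups in 1 fit. *Oasl1*, a translational repressor of *Irf7* in mice, fell over both genotypes by 1.12 (SE 0.42, adjusted p = 0.0480, limma) and was lower in all 6 mice, and in *T/F* alone it fell with blocked mice (adjusted p = 0.0363, limma). *Oas2*, *Oas3* and *Oasl2* had 0.00, 0.05 and -0.01 over both genotypes with standard errors of 0.34, 0.36 and 0.65. *Oas1a* belongs to a cluster of near copies, so its value is uncertain.

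Of the 5 nucleic acid sensors and their regulators, *Adar*, the enzyme that edits double-stranded RNA, rose in *T/F* by 0.34 ± 0.10 (adjusted p = 0.0356, limma), and *Trim25*, the ubiquitin ligase that activates RIG-I, fell in *T/F* by 0.36 (SE 0.09, adjusted p = 0.0199, limma) and over both genotypes by 0.39 (SE 0.09, adjusted p = 0.00485, limma). With blocked mice both also passed in *D/F* (adjusted p = 0.0400 and 0.0348, limma). *Ddx58*, which encodes RIG-I itself, *Ifih1*, which encodes MDA5, and *Zbp1*, a sensor of Z-form nucleic acid, had 0.22 ± 0.19, 0.07 ± 0.19 and 0.07 ± 0.21 over both. Of these, *Ddx58* rose with blocked mice (adjusted p = 0.0490, limma). The ADP-ribosylation genes *Parp9*, *Dtx3l* and *Parp14* had -0.07 ± 0.19, -0.10 ± 0.17 and 0.38 ± 0.25, and none passed (limma adjusted p from 0.246 to 0.792). *Parp14* rose over both genotypes with the mouse as a block (adjusted p = 0.00908, limma).

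Marker genes of several cell types moved with these changes. The 6 monocyte markers summed to 523 to 1383 TPM under DMSO and 158 to 575 TPM with CCS1477 in *D/F*, and to 560 to 774 TPM and then 190 to 300 TPM in *T/F*. The 10 genes used to check for leukemic progenitors summed to 4297 to 10639 TPM and then 975 to 4466 TPM in *D/F*, and to 4672 to 6898 TPM and then 1917 to 3257 TPM in *T/F*. The 6 macrophage markers analysed, of 9 listed, summed to 24.5 to 31.2 TPM and then 7.82 to 14.1 TPM in *D/F*, and to 27.8 to 44.5 TPM and then 11.7 to 18.9 TPM in *T/F*. Sums were lower with CCS1477 in all 6 mice for these 3 lists and for those of conventional and plasmacytoid dendritic cells, NK cells, erythroid cells, megakaryocytes and mast cells, and not in all 6 for those of neutrophils, T cells and B cells. The mast cell markers summed to 89.5 to 183 TPM and then 18.8 to 44 TPM in *D/F*, and the NK markers to 2.69 to 9.64 TPM and then 0.481 to 1.43 TPM. The part of this in the changes of the interferon-stimulated genes was not tested.

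The pathway above these genes was read from a list of 69 genes, of which 48 were analysed, including 1 of 21 interferon genes (*Ifnk*). In *D/F* 5 of the 48 fell and none rose, where 5.14% of all genes rose and 6.51% fell (limma, adjusted p under 0.05). In *T/F* 8 rose and 13 fell, where 25.8% of all genes rose and 17.6% fell. With blocked mice 6 rose and 14 fell in *D/F*, against 21.4% and 18.0% of all genes, and 12 rose and 18 fell in *T/F*, against 31.2% and 22.9%. Of the receptor genes, *Ifngr1*, the ligand-binding chain for interferon gamma, was at 203, 154 and 139 TPM under DMSO and 80.6, 95.4 and 71.8 TPM with CCS1477 in *D/F*, and at 155, 159 and 131 TPM and then 73.2, 79.6 and 81.7 TPM in *T/F*. The groups did not overlap, and it fell by 0.98 in *D/F* (adjusted p = 0.0323, limma) and by 0.91 in *T/F* (adjusted p = 0.00136, limma). *Ifnar2* fell in *T/F* by 0.42 (adjusted p = 0.0131, limma) with -0.57 in *D/F* (adjusted p = 0.161 by limma and 0.0142 with blocked mice), *Ifnar1* rose over both genotypes by 0.40 (adjusted p = 0.0426, limma), and *Ifngr2* had -0.21 (adjusted p = 0.212 by limma and 0.0123 with blocked mice).

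*Stat2*, which encodes a subunit of ISGF3, rose over both genotypes by 0.58 (adjusted p = 0.0121, limma), as did the kinase gene *Jak1* by 0.52 (adjusted p = 0.0142, limma), whereas *Jak2* and *Tyk2* had 0.31 and -0.07 (adjusted p = 0.233 and 0.708, limma). *Jak2* rose with blocked mice (adjusted p = 0.0142, limma).

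*Irf8*, the factor that directs monocyte and dendritic cell fate, was at 36.1, 82.1 and 79.3 TPM under DMSO and 29.5, 18.8 and 30.0 TPM with CCS1477 in *D/F*, and at 65.6, 100 and 108 TPM and then 33.1, 43.8 and 39.3 TPM in *T/F*. The groups did not overlap, and it fell by 1.19 in *T/F* (adjusted p = 0.00669, limma) with -1.24 in *D/F* (adjusted p = 0.0754, limma). *Irf3*, which starts interferon transcription, had 0.21 over both (adjusted p = 0.0665 by limma and 0.0136 with blocked mice), and *Socs1*, the feedback inhibitor of the JAK kinases, had -0.43 (adjusted p = 0.142 by limma and 0.0154 with blocked mice). The pathway gene called above 2-fold in both genotypes was *Tlr7*, the endosomal sensor of single-stranded RNA. It was at 2.51, 3.88 and 2.47 TPM and then 0.149, 0.254 and 0.866 TPM in *D/F*, and at 6.00, 8.86 and 3.70 TPM and then 0.304, 0.431 and 1.56 TPM in *T/F*. It fell by 1.49 in *D/F* (adjusted p = 0.0189, limma) and by 2.03 in *T/F* (adjusted p = 0.00678, limma).

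A further list of 105 interferon-stimulated genes outside the 47 had 97 genes in the table. Over both genotypes 12 of the 96 tested rose and 26 fell, with a median log2 fold change of -0.07, where 25.8% of all genes rose and 19.6% fell. With blocked mice 26 rose and 38 fell, where 34.5% of all genes rose and 25.9% fell. Called above 2-fold in both genotypes were *Trim26*, which rose, and *Ifi205* and *Lgals9*, which fell. *Trim26*, a ubiquitin ligase, had means of 21.7 ± 5.89 (DMSO) and 67.4 ± 13.7 TPM (CCS1477) in *D/F* and of 24.9 ± 4.62 and 62.7 ± 3.58 TPM in *T/F* (SD, n = 3), with adjusted p of 0.0150 and 0.00130 by limma. *Lgals9*, the gene of galectin-9, had 169 ± 51.4 and 46.9 ± 8.74 TPM in *D/F* and 126 ± 14.5 and 59.5 ± 0.717 TPM in *T/F*, with adjusted p of 0.0124 and 0.000905 by limma. *Ifi205*, a p200 gene with the same doubt over near copies, fell by 2.72 in *D/F* and by 2.30 in *T/F* on the log2 scale (adjusted p = 0.0480 and 0.0335, limma).

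The genotypes were compared last. Under DMSO, none of the 45 genes differed between *T/F* and *D/F* at an adjusted p under 0.05 (limma), while 5 of 15265 genes did (0.0328%). At an unadjusted p under 0.05 there were 2 of the 45 genes (4.44%), *Ifi204* and *Bst2*, against 939 of all genes (6.15%). Under CCS1477 again none of the 45 passed, against 5 of 15199 genes (0.0329%). There 8 of the 45 (17.8%) were at an unadjusted p under 0.05, against 1643 of all genes (10.8%). All 8 (*Zbp1*, *Ifit2*, *Oasl1*, *Gbp7*, *Samhd1*, *Ifi203*, *Ifi204* and *Bst2*) had higher values in *T/F*. The median log2 difference of *T/F* from *D/F* was 0.01 under DMSO and 0.25 under CCS1477, against -0.04 and -0.03 for all genes.

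The *Ifi204* value was the largest of the 8. It was at 1.29, 2.96 and 1.33 TPM in *D/F* and 3.06, 5.10 and 5.49 TPM in *T/F* under DMSO, and at 0.638, 0.344 and 0.390 TPM and 2.38, 2.60 and 3.60 TPM with CCS1477. The genotypes did not overlap under either treatment, and the log2 difference was 0.98 (adjusted p = 0.620, limma) and 1.40 (adjusted p = 0.0848, limma). With all 4 groups in 1 fit, *Ifi204* passed under CCS1477.

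No gene of the 15583 tested differed in its response to CCS1477 between the genotypes (0%, limma), so none of the 45 did, whether or not mice were blocked. At an unadjusted p under 0.05 there was 1 of the 45 genes (2.22%), *Gbp7*, against 659 of all genes (4.23%). *Gbp7* responded by -0.46 ± 0.19 in *D/F* and by 0.02 ± 0.09 in *T/F*, a difference of 0.48 ± 0.20 on the log2 scale. The difference in response was above 0 for 37 of the 45 genes and for 8288 of the 15583 genes tested, with medians of 0.26 and 0.02. Within mice, the median log2 ratio of CCS1477 to DMSO over the 45 genes was -0.02, -0.48 and -0.03 in *D/F* mice 1, 2 and 3 and 0.08, 0.08 and -0.04 in *T/F* mice 1, 2 and 3. *D/F* mouse 2, with the high DMSO levels, thus stood below the other mice.

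**Figure D5:**
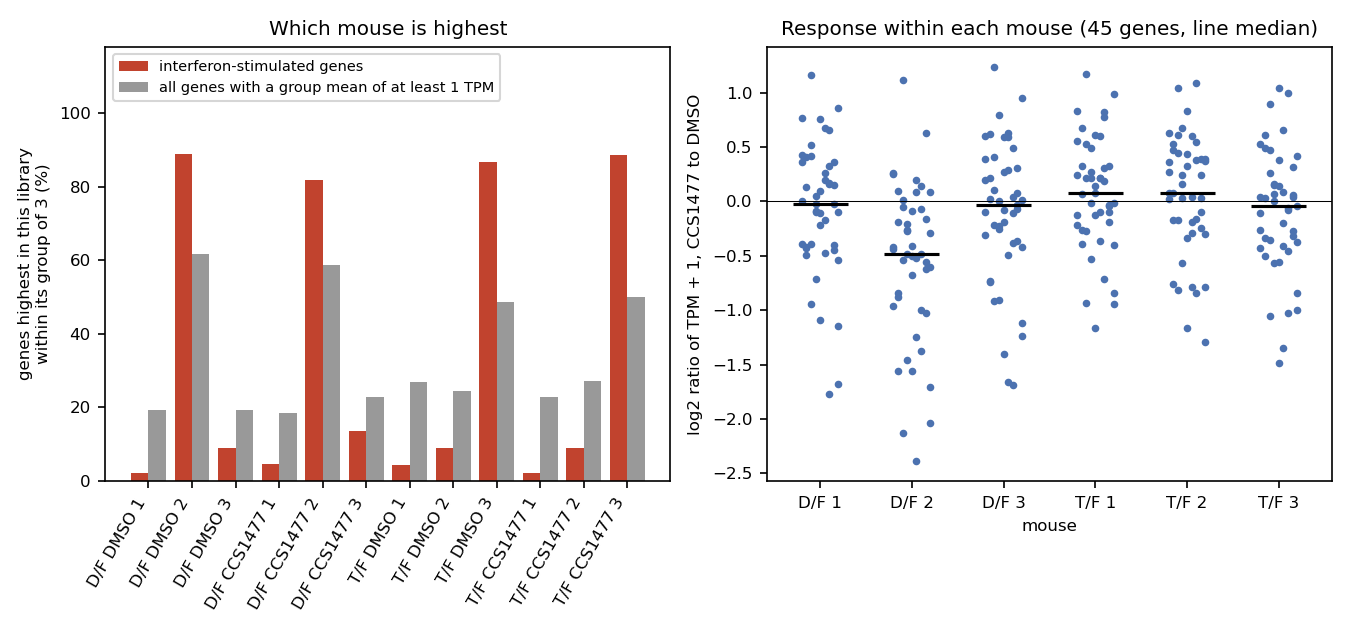
Left, percent of the interferon-stimulated genes (red) and of all genes with a group mean of at least 1 TPM (grey) that are highest in a library within its group of 3, with *D/F* mouse 2 and *T/F* mouse 3 above 80% for the interferon-stimulated genes. Right, log2 ratio of TPM + 1 of CCS1477 to DMSO within each mouse for the 45 genes (points), with the median as a line, lowest in *D/F* mouse 2 at -0.48.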

How the data were processed

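RNA sequencing of 12 libraries was analysed, 3 mice for each of 2 genotypes with CCS1477 and DMSO applied to cells of the same mouse. The authors deposited gene-level TPM. The submitters' processing notes name kallisto and mm10, and the study's methods name AltAnalyze. The annotation is not given in the sources used here. TPM keep no read numbers, so the depth behind each value is unknown and no count model was fitted. The precision of a value is the spread between 3 mice. Among the 15651 genes of the table, the lowest of the genes' highest levels is 2 TPM, so genes lower than that in every library are not included. Positions are from GENCODE vM21 (GRCm38), which places 15257 of them.

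Values were tested as log2(TPM + 1) with limma 3.58.1 under R 4.3.3, so fold changes of low genes are understated. Fits used eBayes without a trend and two-sided p-values with Benjamini-Hochberg adjustment over all genes whose mean reached 1 TPM in a compared group. A gene passed at an adjusted p under 0.05 and was called above 2-fold beyond a log2 fold change of 1. Scripts were checked on simulated data. An exact permutation test of 3 against 3 can reach no p under 0.1. The response to CCS1477 was tested in each genotype and over both with genotype as a covariate, genotypes were compared within each treatment, and the difference of responses was tested across 4 groups. Counts of the listed genes are set beside the same counts over all genes tested, and no set test was run. Values of 1 gene of the pathway list are not reported here, and it is part of that list's counts. Genes were named by their role, all 47 of them, with values by library for those above 2-fold in a genotype, *Mx1* and the 5 most abundant. Pathway genes were fixed by name or by being called in both genotypes, and the library values of *Isg15*, *Oasl2*, *Gbp2* and *Ifi204* were added after their values were seen. The members and lists were chosen with earlier results of these data known.

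Same-numbered samples come from the same mouse by the labels. Their deviations from the group means correlated across genes at 0.527, 0.655 and 0.531 in *D/F* and at 0.367, 0.340 and 0.478 in *T/F*, while libraries of different mice reached at most 0.132. Mouse numbers were thus taken to pair the libraries, and the listed genes whose call changed in the fit with the mouse as a block are named. Alternatives were another pseudocount, other filters, a shared spread, rescaled libraries, a trend and leaving out each mouse.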

Additional observations from a re-analysis of the deposited data

How the results depend on the processing

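With the mouse as a replicate block, the counts of listed genes above 2-fold in *D/F* became 1 rise and 6 falls, from 0 and 2. Over all 15501 genes tested they became 656 and 1081, from 414 and 714. The listed genes at any fold became 5 rises and 11 falls, from 0 and 2. Of all genes, 21.4% then rose and 18.0% fell, from 5.14% and 6.51%. In *T/F* the listed genes at any fold became 13 rises and 12 falls, from 7 and 6. Of all genes, 31.2% then rose and 22.9% fell, from 25.8% and 17.6%. Over both genotypes the rises became 12, from 3, while those of all genes became 34.5%, from 25.8%. With all 4 groups in 1 fit, *D/F* had 1 rise and 4 falls above 2-fold and 1 rise and 7 falls at any fold. Of all genes, 4940 then passed in *D/F*, from 1805. *T/F* had 0 and 1 above 2-fold and 2 and 1 at any fold, while 3713 of all genes passed, from 6620. In this fit 1 listed gene differed between genotypes under CCS1477, against 71 of all genes. With a pseudocount of 0.1, *D/F* had 1 fall by either rule, which was *Ifi204* (adjusted p = 0.0430, limma) and neither of the 2 genes that fell before, and there were 2 rises above 2-fold in *T/F*. With libraries rescaled to equal medians, *D/F* had 4 falls at any fold and *T/F* had 0 rises above 2-fold. The cause of these shifts was not tested, beyond the fewer samples in each fit that leaves out a mouse.

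Leaving out each mouse in turn gave, in *D/F*, 0 to 1 rises and 0 to 3 falls above 2-fold and 0 to 3 rises and 0 to 7 falls at any fold. Of all genes, 0 to 3739 passed in these fits. Without *D/F* mouse 1 or 3, no gene of the whole table passed in *D/F*, so the zeros say nothing about the listed genes. In *T/F*, leaving out a mouse gave 0 to 1 rises and 1 to 3 falls above 2-fold and 0 to 10 rises and 2 to 5 falls at any fold. Of all genes, 3192 to 5122 passed there. Over both genotypes, leaving out a mouse gave 1 rise in every case and 4 to 5 falls above 2-fold, and 2 to 11 rises and 7 to 10 falls at any fold. Of all genes, 5660 to 8546 passed there. The highest count of listed rises, 11, came without *D/F* mouse 2, as did the 8546. No listed gene differed in response or under DMSO between genotypes in any fit that left out a mouse. Under CCS1477 0 to 1 did, where *Ifi203* was among the 27 of all genes that passed without *D/F* mouse 2. The 17 genes that passed in some comparison were followed in both genotypes, also where they had not passed, giving 338 alternative values. Of these, 260 kept their direction and side of the threshold, 41 no longer passed, 36 newly passed and 1 changed sign. The 260 include values that passed neither before nor after. Only results that passed at first, 2 falls in *D/F* and 7 rises and 6 falls in *T/F*, could stop passing. The 41 should therefore not be read as a share of all 338. The sign change was *Ifit2* in *D/F*, at -0.35 to 0.17 without 1 mouse and positive without mouse 2. The depth of a library is unknown from TPM, so counting error cannot be set beside the values of genes under 10 TPM.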
